A study of Mus musculus with 15 samples.

Results

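Cells read viral and other foreign RNA, and misplaced RNA of their own, through a small set of sensors, and answer by making interferon. RIG-I (Ddx58), MDA5 (Ifih1) and TLR3 report double-stranded or uncapped RNA, and MAVS, TBK1, IRF3 and IRF7 carry the signal to the interferon genes. Secreted interferon binds IFNAR1 and IFNAR2, and the STAT and IRF factors below this receptor switch on the interferon-stimulated genes. Embryonic stem cells (ESCs) are known for a weak interferon response. The 37 genes described here cover these steps: 6 RNA sensors and modifiers, 5 genes of the oligoadenylate synthetase (OAS) family, 4 signal carriers, 5 receptor subunits and downstream factors, and 17 interferon-stimulated effectors. They were chosen by name, and all 37 were found among the 26061 genes of the table.

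The cells were E14, a mouse ESC line of 129/Ola background, grown without feeders in serum and LIF. They carried a lentiviral short hairpin RNA that was non-targeting (shScr), directed against Tet1 (shTet1) or directed against Tet2 (shTet2). TET1 and TET2 are enzymes that oxidise methylated cytosine. Each group held 5 libraries of rRNA-depleted RNA, taken after 3 days of puromycin selection. All groups thus shared the lentivirus, the hairpin vector and puromycin. Cells without them were not analysed here, so that a response common to all 3 groups cannot be told apart from the resting state of the line. Each knockdown used a single hairpin, and the labels do not say whether the 5 libraries came from separate infections, so that p-values measure the spread between these libraries.

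Reads are given as normalised reads, the recovered whole reads divided by the scaling factor of the library. Gene reads per library ranged from 15258291 to 35432425. Tet1 fell from 13315 to 19696 normalised reads in shScr to 3935 to 5499 in shTet1, and Tet2 from 9212 to 11888 to 2224 to 3127 in shTet2. All 10 ES cell markers listed were present. Their summed level was 106579 to 131265 normalised reads in shScr, 117543 to 147083 in shTet1 and 99807 to 120509 in shTet2. Against shScr, 8 of the 10 had the higher mean in shTet1 and 2 in shTet2 (median differences 0.23 and −0.07). In shTet2 against shTet1, 1 of the 10 had the higher mean (median −0.34). In each comparison 0 of these ES cell markers passed the threshold. Of 8 immune markers found, 5 had at most 20 reads in every library, and the summed level was 169 to 416. All 10 primitive endoderm markers were also present, with a summed level of 7266 to 10551 in shScr, 6970 to 9409 in shTet1 and 5600 to 10358 in shTet2. Of these 10, 0 had the higher mean in shTet1 and 1 in shTet2 against shScr (median differences −0.21 and −0.64). None of them passed the threshold in a comparison. Markers of the 2-cell-like state differed between the knockdowns, and their summed level was 23549 to 48756 in shScr, 5107 to 31981 in shTet1 and 56647 to 88306 in shTet2. All 11 tested were higher in shTet2 than in shTet1 past the threshold, with a median difference of 2.24 on the log2 scale. Against shScr, 0 of the 11 passed in shTet1 and 1 in shTet2. In 4 libraries (shScr replicate 4, shTet1 replicates 3 and 4, shTet2 replicate 4), reads in olfactory and vomeronasal receptor genes stood apart, at 53.3 to 63.4 per 1000000 gene reads against 9.43 to 26.3 in the other 11. In bulk RNA, fewer cells that make a transcript and less of it per cell cannot be told apart. What these patterns contribute to the values below was not tested, and values without the 4 libraries are given where they matter.

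The interferon-stimulated response element is the DNA site through which STAT2 and IRF9 act, and its core was searched to see which of the genes carry it at their start. The core was read as GAAANNGAAA on either strand, overlapping matches included, in the RefSeq window from 250 bases before to 50 bases after each start (GRCm38.p6). It was present in 14 of the 32 genes with a window, or 43.8%, and in 3.44% of all 32851 windows. A gene counted if any of its windows held the core, whereas the second share is of single windows, so that the units differ. The genes without a window were Dhx58, Oas2, Usp18, Mx1 and Mx2. A window around 1 core is shown for 8 of the 14, the 4 with the lowest and the 4 with the highest level in shScr, 5′ to 3′ on the strand of the gene with the core in capitals, so that both ends of the range of levels described next can be seen. Isg15, Ifih1, Cxcl10 and Ifit3 averaged under 0.1 in shScr in reads per kilobase of exon and 1000000 gene reads (RPKM, computed here).
Isg15 (chr4:156200871-156200900, minus strand): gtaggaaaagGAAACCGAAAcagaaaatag
Ifih1 (chr2:62646206-62646233, minus strand): gaagagaatcGAAACAGAAAccgatctg
Cxcl10 (chr5:92349083-92349112, minus strand): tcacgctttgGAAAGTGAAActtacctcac
Ifit3 (chr19:34583363-34583392, plus strand): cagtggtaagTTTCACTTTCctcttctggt
Eif2ak2, Ddx58, Ifitm3 and Ifitm2 averaged above 1 RPKM.
Eif2ak2 (chr17:78882535-78882564, minus strand): agtccgccggGAAAACGAAAcagaagagaa
Ddx58 (chr4:40239804-40239833, minus strand): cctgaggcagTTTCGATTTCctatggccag
Ifitm3 (chr7:141010706-141010735, minus strand): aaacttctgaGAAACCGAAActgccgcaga
Ifitm2 (chr7:140955988-140956017, minus strand): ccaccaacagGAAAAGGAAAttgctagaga
In Ifit3 and Ddx58 the core lay on the opposite strand and reads as its reverse complement. The first base of the core lay 72, 213, 156 and 46 bases before the start in Isg15, Cxcl10, Ifit3 and Ifitm2. In Ifih1, Eif2ak2, Ddx58 and Ifitm3 it was base 33, 19, 3 and 20 after the start. Of the 7 genes with a core and under 1 RPKM, 6 had it before the start, and of the 7 at 1 RPKM or more, 4 did. The 14 genes with a core spanned 0 to 74.9 RPKM in shScr, with a median of 1.58. The 18 without it spanned 0.0103 to 44.1, with a median of 2.81, so that the ranges overlapped over nearly their whole width.

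To ask which parts of the pathway ESCs hold, levels were compared per exon length, as RPKM, and gene positions are given in mm9. In shScr, 20 of the 37 genes averaged at least 1 RPKM and 17 less. Each step except the receptor and its factors held genes on both sides. In 11 genes no library had more than 20 reads, a share of 29.7%, against 40.9% of all genes. In 15 genes every library had at least 100 reads, a share of 40.5%, against 33.8% of all genes.

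**Figure D1:**
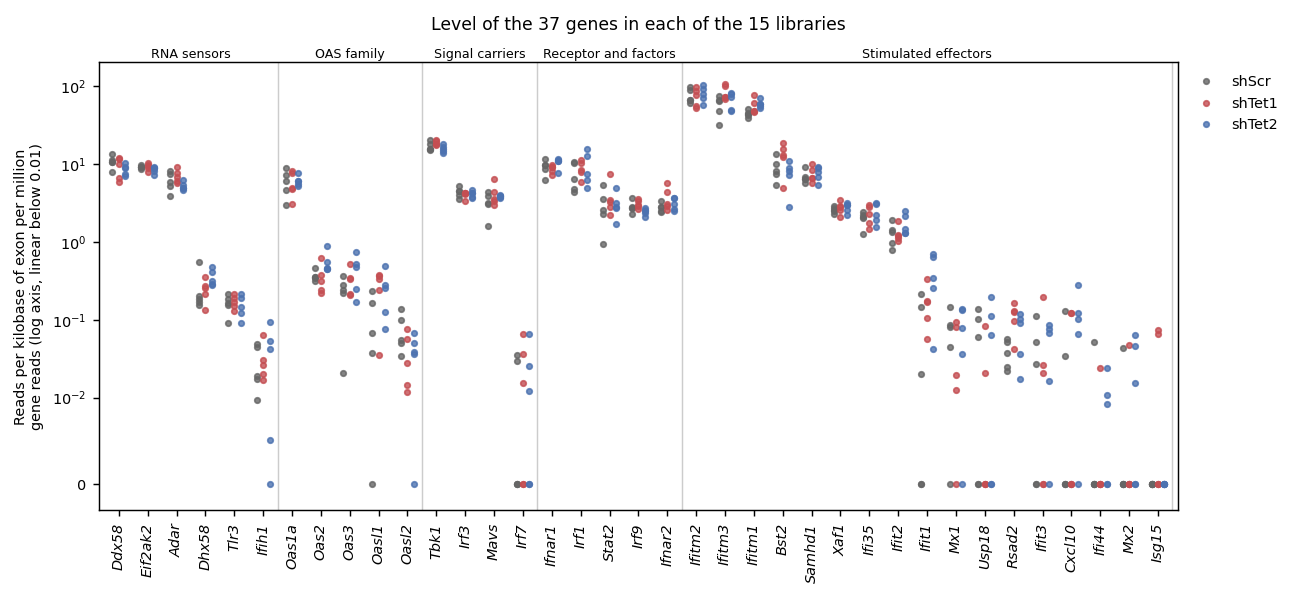
Level of each of the 37 genes in each library, in reads per kilobase of exon and 1000000 gene reads on a log axis that is linear below 0.01. Each point is 1 of 5 libraries of shScr (grey), shTet1 (red) or shTet2 (blue), and the genes are ordered by level in shScr within their role. Ifitm1 to Ifitm3 were highest, and Isg15 was at 0 in 13 of 15 libraries.

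Among the sensors, Ddx58 (chromosome 4, 40150806 to 40186861, mm9) had the highest level, at 10.6 ± 1.91 in shScr, 9.1 ± 2.77 in shTet1 and 8.51 ± 1.34 in shTet2 (RPKM, SD, n = 5 each). Eif2ak2, which encodes the RNA-activated kinase PKR, followed at 9.13 ± 0.384, and Adar, which edits adenosines in double-stranded RNA, at 6.06 ± 1.71 in shScr. Ddx58 and Eif2ak2 differed by less than the spread of Ddx58 between libraries. The other 3 sensors were far lower. Dhx58 (LGP2) was at 0.252 ± 0.167, Tlr3 at 0.162 ± 0.0458 and Ifih1 (MDA5) at 0.0278 ± 0.0174 RPKM. Ifih1 had 62 reads over all 15 libraries and Ddx58 21952, so that the RIG-I and MDA5 genes, which report different forms of RNA, were held at very unequal levels.

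The OAS enzymes make short oligoadenylates when they meet double-stranded RNA. Oas1a (chromosome 5, 121346265 to 121357536) was the only 1 of the 5 chosen OAS genes above 1 RPKM, at 5.9 ± 2.28 in shScr, 5.72 ± 2.13 in shTet1 and 6.04 ± 0.926 in shTet2. Of its stretches of 50 bases, 53.0% are shared with Oas1b and Oas1g, so that its reads may be split among these genes. Oas1g, a family member outside the 37 genes, was itself at 2.81 ± 0.626 RPKM in shScr. Oas2 was at 0.364 ± 0.0552, Oas3 at 0.226 ± 0.127, Oasl1 at 0.101 ± 0.0966 and Oasl2 at 0.0751 ± 0.0426 RPKM in shScr.

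Among the signal carriers, the kinase gene Tbk1 (chromosome 10, 120983511 to 121023850) had 16.8 ± 2.03 RPKM in shScr. Irf3, the transcription factor that TBK1 activates, had 4.34 ± 0.611, and Mavs, the mitochondrial adaptor of RIG-I and MDA5, had 3.19 ± 1.04. Irf7, which is itself interferon-stimulated and amplifies interferon production, had 0.0129 ± 0.0177, from 4 reads over the 5 libraries. Of the 15 interferon genes listed, 7 had any read, with 23 reads over all 15 libraries and at most 5 in a library. None of the 15 passed the filter for testing.

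All 5 genes of the receptor step were present. The receptor subunit gene Ifnar1 (chromosome 16, 91485483 to 91507686) had 9.13 ± 1.88 RPKM in shScr and Ifnar2 2.79 ± 0.376, of which 13.7% of stretches are shared with the neighbouring Il10rb. Stat2 and Irf9, whose products act together below the receptor, had 2.94 ± 1.65 and 2.83 ± 0.49. Irf1, a further interferon regulatory factor, had 7.28 ± 2.97.

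The effectors covered the widest range. The membrane proteins IFITM1, IFITM2 and IFITM3 restrict virus entry, and their genes lie together on chromosome 7. Ifitm2 (chromosome 7, 148140736 to 148141882) had 74.9 ± 15.7 in shScr, 73.2 ± 19.3 in shTet1 and 79.5 ± 17.8 in shTet2 RPKM. Ifitm3 had 56.5 ± 17 and Ifitm1 44.1 ± 4.41 in shScr, and the libraries of Ifitm2 and Ifitm3 overlapped. Between 5.02% and 11.1% of the stretches of these 3 genes are shared within the family or with related sequences. Bst2 (tetherin, which holds budding virus at the cell) was at 8.82 ± 3.01, and Samhd1, which lowers the pool of deoxynucleotides, at 6.9 ± 1.28. Xaf1 was at 2.58 ± 0.233, Ifi35 at 1.98 ± 0.44 and Ifit2 at 1.28 ± 0.423 RPKM.

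The other 9 effectors averaged under 0.1 RPKM in shScr. Isg15, which encodes a ubiquitin-like modifier and is a standard mark of an interferon response, had 0 reads in shScr and in shTet2. With 3 counts as the limit that a count of 0 allows, this leaves up to 0.0296 and 0.0243 reads per 1000000 gene reads over each group. In shTet1 it had 1 read in each of replicates 3 and 4, both among the 4 libraries that stood apart. Ifit1 had 21, 54 and 126 reads over the 5 libraries of shScr, shTet1 and shTet2, and Rsad2 (viperin) had 17, 55 and 39. Mx1 had 26, 15 and 38, Cxcl10 had 5, 9 and 26, and Usp18, which removes ISG15 from its targets, had 11, 4 and 19. Ifit3 had 7, 8 and 9 reads, Ifi44 had 6, 3 and 6, and Mx2 had 2, 2 and 9. Of the stretches of Ifit3, 51.5% are shared with I830012O16Rik, so that its reads may be split too. These limits cover counting error only.

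To ask whether depletion of a TET moved the genes, the 3 groups were compared on the deposited variance-stabilised values, on which 1 unit is about a 2-fold change where reads are many and more than that where they are few. Intervals are 95% confidence intervals. Isg15 did not pass the filter of a value above the minimum in at least 5 libraries, and 36 genes were tested. The share of all tested genes past an adjusted p of 0.05 was 0.0718% between shTet1 and shScr (14 of 19490), 0.390% between shTet2 and shScr (76) and 4.24% between shTet2 and shTet1 (827). In limma with Benjamini-Hochberg adjustment, 0 of the 36 genes passed in each comparison. The unadjusted p was under 0.05 for 3, 2 and 5 of them, or 8.33%, 5.56% and 13.9%, against 11.8%, 11.6% and 15.7% of all tested genes. No share of the 36 genes exceeded that of all genes. A weighted linear fit on the log of the recovered reads (voom) also called 0 in each comparison. Median centring turned the split of all genes called in shTet2 against shScr from 43 higher and 33 lower to 5 and 34, and left the 36 genes at 0.

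The median difference of the 36 genes was 0.04 for shTet1 minus shScr, 0.08 for shTet2 minus shScr and −0.01 for shTet2 minus shTet1. The medians over all tested genes were 0.01, 0.04 and 0.01 in the same order. The median size of a difference, its sign left out, was 0.11, 0.17 and 0.16 for the 36 genes and 0.16, 0.15 and 0.16 for all. The median 95% confidence interval of the 36 genes reached 0.38 to each side in each comparison. The intervals of single genes extended from −0.76 to 1.04 in shTet1 and from −0.84 to 1.46 in shTet2 against shScr. Both comparisons share the shScr libraries.

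**Figure D2:**
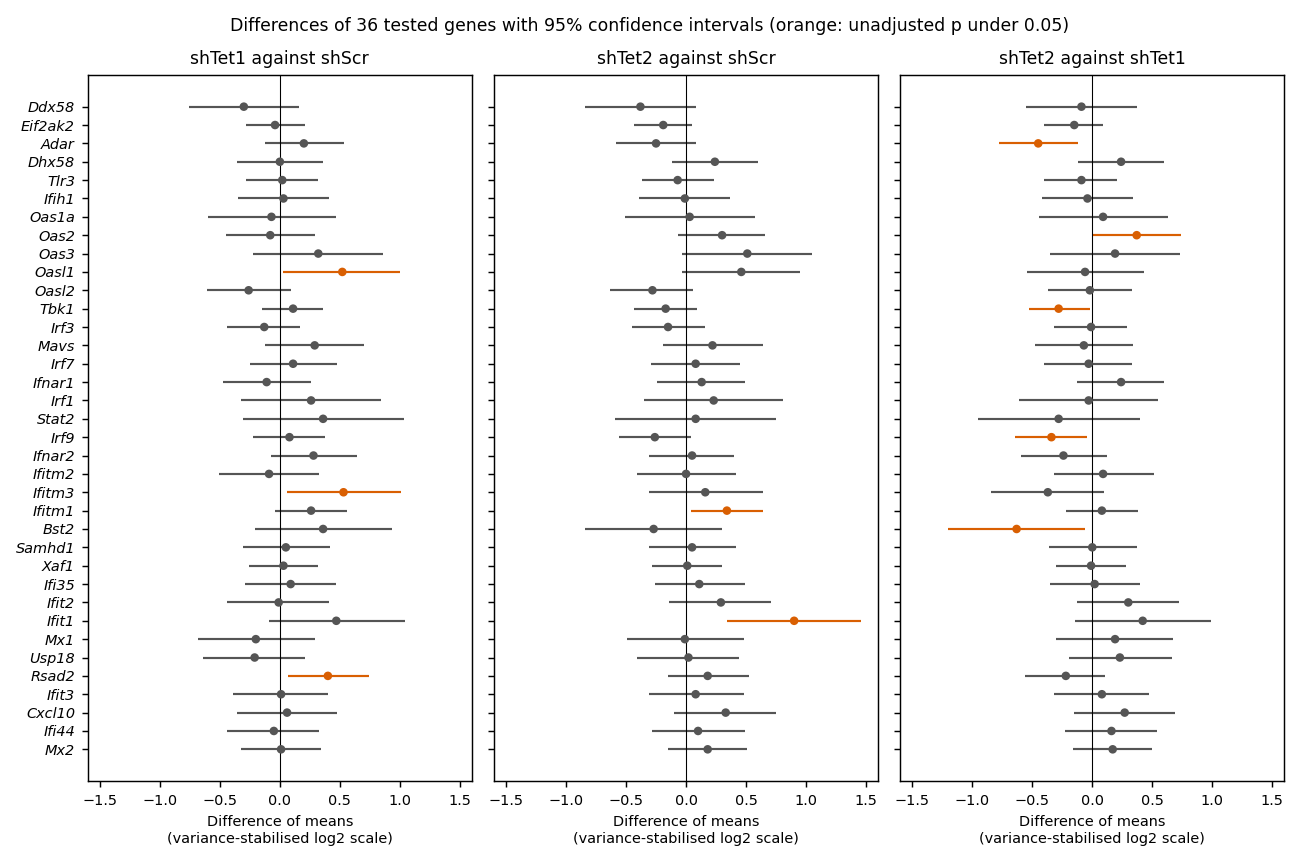
Difference of group means for the 36 tested genes on the variance-stabilised log2 scale, with 95% confidence intervals from limma, in the 3 comparisons. Orange marks an unadjusted p under 0.05 (3, 2 and 5 genes), and no gene passed an adjusted p of 0.05.

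Between shTet1 and shScr, the genes with an unadjusted p under 0.05 were Ifitm3, Oasl1 and Rsad2, all with the higher mean in shTet1. Ifitm3 was at 1100, 504, 1020, 688 and 1042 normalised reads in shScr replicates 1 to 5, at 1472, 1019, 1128, 992 and 1652 in shTet1 and at 1095, 677, 1275, 692 and 1126 in shTet2. All 5 shTet1 libraries were above their shScr counterpart of the same number, but the groups overlapped, and shScr replicates 2 and 4 were low. The difference was 0.53 (SE 0.23, interval 0.06 to 1.01, adjusted p = 0.355 by limma with Benjamini-Hochberg adjustment, exact permutation p = 0.103). It was 0.69 in replicates 1 and 2 and 0.43 in replicates 3 to 5. Without shScr replicate 2 it was 0.36. The same-numbered libraries of shTet1 and shScr deviated together across genes, and with the replicate number as a block Ifitm3 passed, at a limma Benjamini-Hochberg adjusted p of 0.0205 (interval 0.28 to 0.79). That fit held all 3 groups and gave each replicate number a shared effect. It thus also tied shTet2 to shScr by number, although these were not taken to pair. Ifitm3 was the only 1 of the 36 genes to pass for shTet1 against shScr in that fit, a share of 2.78%, against 4.80% of all tested genes.

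Oasl1 encodes an OAS-like protein without synthetase activity that restrains Irf7 translation, and Rsad2 encodes the antiviral enzyme viperin. Oasl1 was at 13.5, 0, 2.32, 9.01 and 4.17 normalised reads in shScr replicates 1 to 5, at 20, 18.6, 14.3, 20 and 2.29 in shTet1 and at 13.7, 26.5, 7.5, 15.1 and 4.54 in shTet2. The first 4 libraries of shTet1 were above all shScr libraries and replicate 5 was not. The difference was 0.52 (SE 0.23, interval 0.03 to 1.0, adjusted p = 0.39 by limma with Benjamini-Hochberg adjustment, exact permutation p = 0.0794), and the mean normalised reads were 2.59-fold those of shScr. Rsad2 was at 2.08, 3.82, 5.8, 2.25 and 5.21 normalised reads in shScr replicates 1 to 5, at 14.8, 3.88, 13, 11.6 and 10.3 in shTet1 and at 3.21, 1.56, 9, 10.4 and 10.2 in shTet2. All 5 shTet1 libraries were above their shScr counterparts, and replicate 2 lay within the range of shScr. The difference was 0.4 (SE 0.16, interval 0.07 to 0.74, adjusted p = 0.309 by limma with Benjamini-Hochberg adjustment, exact permutation p = 0.0238). Mean normalised reads were 2.79-fold those of shScr, from 17 and 55 reads in all.

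Between shTet2 and shScr, the genes with an unadjusted p under 0.05 were Ifit1 and Ifitm1, again with the higher mean in the knockdown. Ifit1 encodes a protein that binds RNA lacking the methylation of the host cap. Ifit1 was at 12.5, 0, 9.28, 1.13 and 0 normalised reads in shScr replicates 1 to 5, at 9.63, 18.6, 10.4, 3.16 and 6.87 in shTet1 and at 35.3, 39, 21, 2.32 and 15.9 in shTet2. All 5 shTet2 libraries were above the shScr library of the same number, but these numbers were not taken to pair shTet2 with shScr. Replicates 1 to 3 and 5 of shTet2 were above all shScr libraries, whereas replicate 4, a library that stood apart, was not. The difference was 0.9 (SE 0.27, interval 0.34 to 1.46, adjusted p = 0.163 by limma with Benjamini-Hochberg adjustment, exact permutation p = 0.0397), and mean normalised reads were 4.97-fold those of shScr. It was 1.3 in replicates 1 and 2 and 0.63 in replicates 3 to 5, and 1.09 without the 4 libraries that stood apart (limma Benjamini-Hochberg adjusted p = 0.183). Of the stretches of Ifit1, 7.13% are shared with related genes. On the recovered reads the difference was 2.67 (log2, limma voom, Benjamini-Hochberg adjusted p = 0.279).

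Ifitm1 was at 1217, 1152, 1143, 900 and 1092 normalised reads in shScr replicates 1 to 5, at 1361, 1748, 1207, 1080 and 1286 in shTet1 and at 1345, 1209, 1477, 1248 and 1751 in shTet2. All 5 shTet2 libraries were above the shScr library of the same number, though the numbers were not taken as pairs here. The lowest of shTet2 lay just under the highest of shScr. The difference was 0.34 (SE 0.14, interval 0.04 to 0.64, adjusted p = 0.367 by limma with Benjamini-Hochberg adjustment, exact permutation p = 0.0159). It was 0.1 in replicates 1 and 2 and 0.49 in replicates 3 to 5. In shTet1 the difference of Ifitm1 from shScr was 0.26 (−0.04 to 0.56), also with 5 of 5 libraries above their counterpart, and it shares the shScr libraries.

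**Figure D3:**
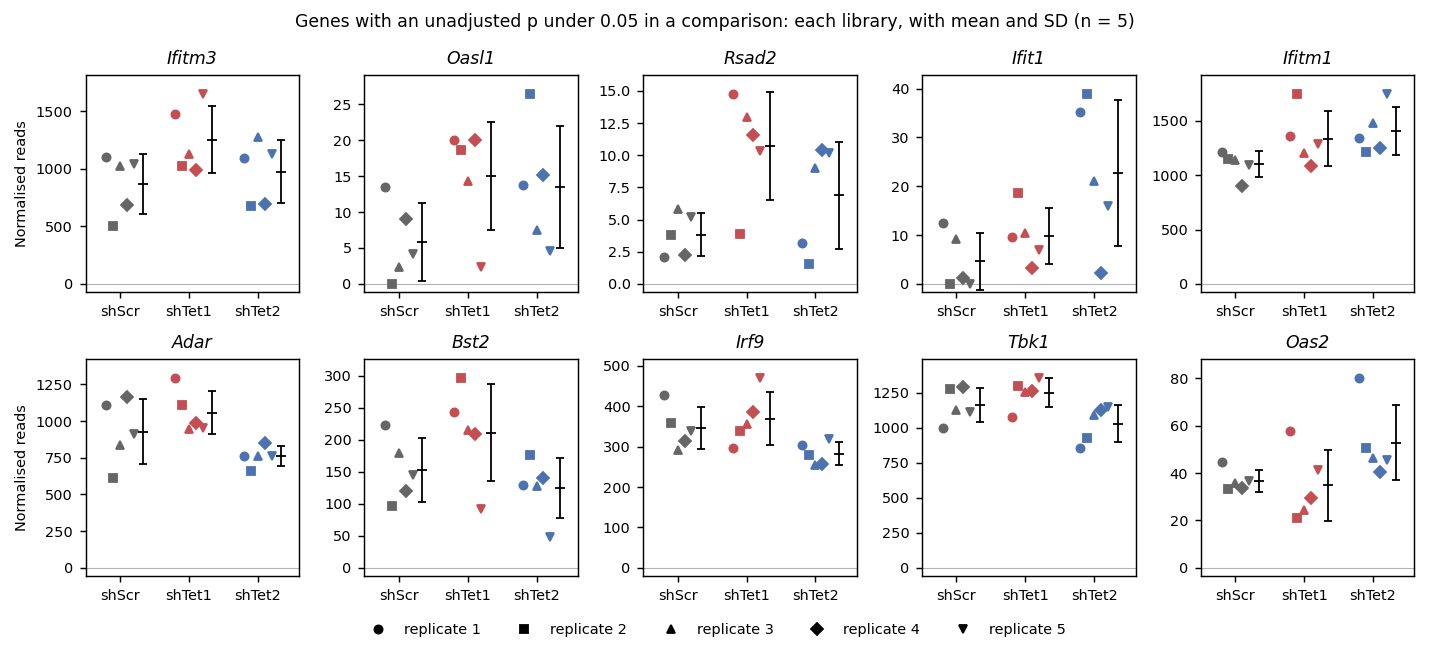
Normalised reads of the 10 genes with an unadjusted p under 0.05 in a comparison, 1 panel a gene, on linear axes with a line at 0. Points are single libraries with the replicate number as shape, and bars to the right of them give the mean and SD of 5 libraries. Adar is the only panel in which 2 groups, shTet1 and shTet2, do not overlap.

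Between shTet2 and shTet1, 5 genes had an unadjusted p under 0.05. Adar, Bst2, Irf9 and Tbk1 had the lower mean in shTet2 and Oas2 the higher. The 2-cell-like markers also differed between these groups, by a median of 2.24. For the ES cell markers the median was −0.34, with 0 of 10 past the threshold. The part of either list in these values was not tested. Adar was at 1111, 615, 839, 1167 and 912 normalised reads in shScr replicates 1 to 5, at 1296, 1111, 945, 988 and 950 in shTet1 and at 761, 663, 759, 852 and 765 in shTet2. All shTet2 libraries lay below all shTet1 libraries, and shScr overlapped with both. This was 1 of 36 genes without overlap, or 2.78%, against 6.04% of all tested genes. The difference was −0.45 (SE 0.16, interval −0.78 to −0.12, adjusted p = 0.128 by limma with Benjamini-Hochberg adjustment, exact permutation p = 0.00794), and this exact p is the smallest that 5 against 5 libraries can give. It was −0.73 in replicates 1 and 2 and −0.27 in replicates 3 to 5, and −0.57 without the 4 libraries that stood apart. Same-numbered libraries of shTet2 and shTet1 deviated together too. In the same fit of all 3 groups with the replicate number as a block, Adar passed at a limma Benjamini-Hochberg adjusted p of 0.0301 (interval −0.72 to −0.18). It was again 1 of the 36 genes, or 2.78%, against 11.2% of all tested genes. Against shScr, Adar differed by 0.2 (−0.12 to 0.53) in shTet1 and by −0.25 (−0.58 to 0.08) in shTet2.

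Bst2 was at 223, 96.8, 180, 120 and 145 normalised reads in shScr replicates 1 to 5, at 243, 297, 216, 209 and 91.6 in shTet1 and at 129, 176, 128, 140 and 48.8 in shTet2. Every shTet2 library was below its shTet1 counterpart, and replicate 5 was low in both knockdowns. The difference was −0.63 (SE 0.27, interval −1.2 to −0.06, adjusted p = 0.25 by limma with Benjamini-Hochberg adjustment, exact permutation p = 0.0952). Without shTet2 replicate 5 it was −0.41 and without shTet1 replicate 5 it was −0.85. Bst2 is an effector, whereas Irf9 and Tbk1 act in signalling.

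Irf9 was at 428, 358, 293, 313 and 339 normalised reads in shScr replicates 1 to 5, at 296, 338, 356, 385 and 471 in shTet1 and at 304, 279, 255, 256 and 318 in shTet2. shTet2 lay lower except in replicate 1. The difference was −0.34 (SE 0.14, interval −0.64 to −0.04, adjusted p = 0.243 by limma with Benjamini-Hochberg adjustment, exact permutation p = 0.0238). It was −0.11 in replicates 1 and 2 and −0.49 in replicates 3 to 5. Tbk1 was at 998, 1278, 1130, 1292 and 1111 normalised reads in shScr replicates 1 to 5, at 1081, 1300, 1256, 1263 and 1359 in shTet1 and at 859, 925, 1092, 1128 and 1148 in shTet2. All 5 shTet2 libraries were below their shTet1 counterparts, and the ranges overlapped through shTet1 replicate 1. The difference was −0.28 (SE 0.12, interval −0.53 to −0.02, adjusted p = 0.274 by limma with Benjamini-Hochberg adjustment, exact permutation p = 0.0317).

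Oas2 was at 44.7, 33.1, 35.9, 33.8 and 36.5 normalised reads in shScr replicates 1 to 5, at 57.8, 21, 24.6, 29.5 and 41.2 in shTet1 and at 80.3, 50.8, 46.5, 40.6 and 45.4 in shTet2. All 5 shTet2 libraries were above their shTet1 counterparts, and shTet1 replicates 1 and 5 lay within the range of shTet2. The difference was 0.37 (SE 0.18, interval 0.01 to 0.74, adjusted p = 0.308 by limma with Benjamini-Hochberg adjustment, exact permutation p = 0.0952). Against shScr, Oas2 in shTet2 differed by 0.3 (unadjusted p = 0.109 in limma, adjusted p = 0.559, exact permutation p = 0.0159).

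The best expressed gene of each other role did not pass either. Ddx58 was at 1724, 1735, 1751, 1187 and 2174 normalised reads in shScr replicates 1 to 5, at 953, 873, 1601, 1715 and 2052 in shTet1 and at 1318, 1092, 1420, 1013 and 1678 in shTet2. In shTet1, replicates 1 and 2 were low and replicates 3 to 5 lay within the range of shScr, so that its difference from shScr was −0.9 in replicates 1 and 2 and 0.1 in replicates 3 to 5. The pooled difference was −0.3 (SE 0.22, interval −0.76 to 0.16, adjusted p = 0.661 by limma with Benjamini-Hochberg adjustment, exact permutation p = 0.254). In shTet2 all 5 libraries were below the shScr library of the same number, though these numbers were not taken as pairs. The difference of shTet2 from shScr was −0.38 (SE 0.22, interval −0.84 to 0.08, adjusted p = 0.543 by limma with Benjamini-Hochberg adjustment, exact permutation p = 0.0794). Between the knockdowns the difference was −0.09 (SE 0.22, interval −0.55 to 0.37, adjusted p = 0.923 by limma with Benjamini-Hochberg adjustment, exact permutation p = 0.77), and it was 0.18 without the 4 libraries that stood apart.

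Oas1a was at 202, 139, 336, 256 and 415 normalised reads in shScr replicates 1 to 5, at 204, 130, 220, 348 and 374 in shTet1 and at 248, 229, 234, 250 and 347 in shTet2. The ranges of the 3 groups overlapped. The differences were −0.07 (−0.6 to 0.47) in shTet1, 0.03 (−0.51 to 0.57) in shTet2 and 0.09 (−0.44 to 0.63) between the knockdowns, and their sign turned when single libraries were left out. The SE was 0.26 in each, the adjusted p by limma (Benjamini-Hochberg) was 0.96, 0.984 and 0.928, with exact permutation p-values of 0.81, 0.929 and 0.683.

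Ifnar1 was at 1468, 1193, 1357, 789 and 1325 normalised reads in shScr replicates 1 to 5, at 1112, 1009, 1285, 905 and 1302 in shTet1 and at 1413, 1352, 1517, 915 and 1483 in shTet2. Replicate 4 was low in all 3 groups. The differences were −0.11 (−0.47 to 0.26), 0.13 (−0.24 to 0.49) and 0.24 (−0.13 to 0.6) in the same order. The SE was 0.17 in each, the adjusted p by limma (Benjamini-Hochberg) was 0.881, 0.854 and 0.601, with exact permutation p-values of 0.571, 0.492 and 0.183.

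Ifitm2 was at 1253, 1469, 1005, 830 and 1008 normalised reads in shScr replicates 1 to 5, at 1171, 1315, 773, 757 and 1241 in shTet1 and at 1377, 1075, 1035, 756 and 1356 in shTet2. The 3 groups overlapped, and replicate 4 was lowest in each. The differences of Ifitm2 were −0.09 (−0.51 to 0.33), 0.0 (−0.41 to 0.42) and 0.09 (−0.32 to 0.51), with a sign that turned under several alternatives. The SE was 0.2 in each, the adjusted p by limma (Benjamini-Hochberg) was 0.918, 0.997 and 0.902, with exact permutation p-values of 0.675, 0.968 and 0.714. Tbk1 differed from shScr by 0.11 (−0.15 to 0.36, SE 0.12, limma Benjamini-Hochberg adjusted p = 0.808) in shTet1, with an exact permutation p of 0.286. In shTet2 it differed by −0.17 (−0.43 to 0.09, SE 0.12, limma Benjamini-Hochberg adjusted p = 0.666), with an exact permutation p of 0.135.

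The other 22 tested genes had an unadjusted p above 0.05 in all 3 comparisons. Among the well-expressed effectors, Xaf1 and Samhd1 differed by at most 0.05 in each comparison, with intervals of −0.26 to 0.32 and −0.31 to 0.42 in shTet1. Eif2ak2 differed by −0.04 (−0.28 to 0.21) in shTet1 and −0.19 (−0.43 to 0.05) in shTet2. Irf3 differed by −0.13 and −0.15, and Mavs by 0.29 and 0.22. Oas3 had the widest gap in shTet2 among these genes, at 0.51 (−0.03 to 1.05), with 2.55 normalised reads in shScr replicate 2 against 27.1 to 40.5 in the other 4 shScr libraries. Stat2 had the widest interval in shTet1, −0.31 to 1.03.

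Single libraries stood out in several of these genes. In the 19 genes that averaged at least 100 normalised reads, shScr replicate 2 was lowest for Stat2, at 98 normalised reads against 231 to 507 in the other 4. The same library was lowest of shScr for Mavs (125), Adar (615), Ifitm3 (504), Oas1a (139) and Bst2 (96.8), but not for Ddx58, Eif2ak2 or Samhd1. The deviations of Adar and Stat2 from their group means had r = 0.927 over the 15 libraries, those of Irf1 and Ifit2 r = 0.868, and those of Adar and Mavs r = 0.847. The median over all 171 pairs was 0.0632, and the lowest, for Adar and Irf3, was −0.718. The points share libraries and their depth, and the correlations are given as a description.

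Irf1 and Ifi35 were higher in replicates 1 and 2 than in replicates 3 to 5 in all 3 groups. Irf1 was at 929, 955, 609, 372 and 442 normalised reads in shScr. It was at 935, 853, 752, 665 and 580 in shTet1 and at 1270, 1053, 671, 508 and 452 in shTet2. The mean gap was 0.81 on the log2 scale, more than its difference from shScr in either knockdown (0.26 and 0.23). Oas1a was lower in replicates 1 and 2 in 2 of 3 groups, with a mean gap of −0.6. More than 1 way of extracting RNA is named for these samples, with no link to single libraries, and its part in the split was not tested.

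**Figure D4:**
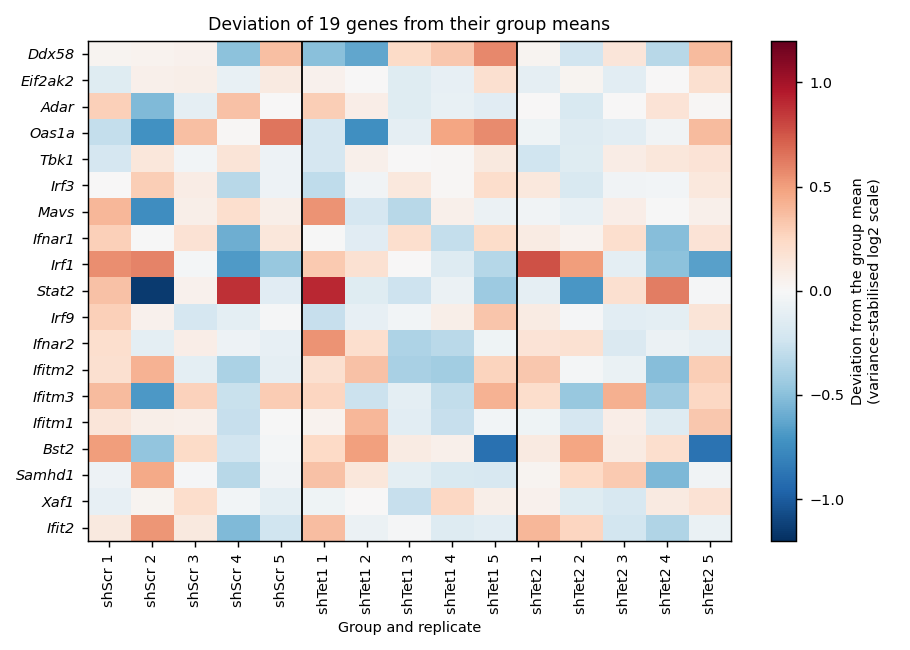
Deviation of the 19 genes with at least 100 normalised reads on average from their group means, for each of the 15 libraries, on the variance-stabilised log2 scale. Red is above and blue below the group mean. Stat2 reached −1.15 in shScr replicate 2, and Bst2 −0.9 and −0.88 in replicate 5 of shTet1 and shTet2.

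Further genes of the pathway gave a wider view. Of 87 listed (interferons, receptors and kinases, nucleic acid sensing, and further stimulated genes), 85 were found and 68 were tested. Among the 68, limma with Benjamini-Hochberg adjustment called 0 in shTet1 and 0 in shTet2 against shScr. Unadjusted p-values under 0.05 went to 11 higher and 1 lower in shTet1, and to 7 higher and 1 lower in shTet2, or 17.6% and 11.8% of the 68 against 11.8% and 11.6% of all tested genes. Between the knockdowns 2 were called, or 2.94% against 4.24% of all, and 8 higher and 8 lower had such an unadjusted p, or 23.5% against 15.7%. The medians were 0.09, 0.11 and −0.01, in the order of the comparisons above. With the replicate block, 4 of the 68 passed in shTet1 against shScr, or 5.88% against 4.80% of all. H2-K1, Tor3a and Dtx3l had the higher mean in shTet1 and Ikbke the lower. Between the knockdowns 10 passed in that fit, or 14.7% against 11.2% of all.

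Ikbke, which encodes the TBK1-related kinase IKK-epsilon, was higher in shTet2 than in shTet1. Ikbke was at 38.4, 21.6, 48.7, 56.3 and 37.5 normalised reads in shScr replicates 1 to 5, at 11.9, 16.3, 18.1, 33.7 and 20.6 in shTet1 and at 54.6, 50, 46.5, 82.8 and 52.2 in shTet2. All shTet2 libraries were above all shTet1 libraries, and shScr overlapped with both. The difference was 0.84 (SE 0.18, interval 0.47 to 1.22, adjusted p = 0.00964 by limma with Benjamini-Hochberg adjustment, exact permutation p = 0.00794), and it passed in all alternatives that tested it. Group means on the variance-stabilised scale were 6.16 in shScr, 5.64 in shTet1 and 6.48 in shTet2. Against shScr, Ikbke in shTet1 differed by −0.52 (SE 0.18, interval −0.9 to −0.15, adjusted p = 0.228 by limma with Benjamini-Hochberg adjustment, exact permutation p = 0.0159). With the replicate block the limma adjusted p was 0.0387. H2-K1, a major histocompatibility class I gene, was lower in shTet2 than in shTet1. H2-K1 was at 181, 208, 275, 279 and 264 normalised reads in shScr replicates 1 to 5, at 347, 373, 384, 389 and 413 in shTet1 and at 248, 282, 171, 286 and 209 in shTet2. shTet1 stood above both other groups without overlap. Of the 68 further genes tested, 2 were without overlap between shTet1 and shScr and 3 between the knockdowns. The shares of all tested genes were 2.62% and 6.04%. The difference between the knockdowns was −0.62 (SE 0.16, interval −0.94 to −0.29, adjusted p = 0.0274 by limma with Benjamini-Hochberg adjustment, exact permutation p = 0.00794). It missed the threshold when any of 7 single libraries was left out (shTet1 replicates 2 to 5, shTet2 replicates 1, 3 and 5), with limma Benjamini-Hochberg adjusted p-values up to 0.0702. Without the 4 libraries that stood apart, the adjusted p was 0.123. Against shScr, H2-K1 in shTet1 differed by 0.6 (SE 0.16, interval 0.28 to 0.93, adjusted p = 0.12 by limma with Benjamini-Hochberg adjustment, exact permutation p = 0.00794), and with the replicate block the adjusted p was 0.0248.

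Other large differences with an unadjusted p under 0.05 were as follows. In shTet1, Tor3a differed from shScr by 0.62 (SE 0.17, interval 0.27 to 0.98, adjusted p = 0.133 by limma with Benjamini-Hochberg adjustment, exact permutation p = 0.00794), with an adjusted p of 0.0203 under the block. In shTet2, Tmem173 (STING, the adaptor of cytosolic DNA sensing) was at 24.9, 32.8, 6, 15.1 and 1.13 normalised reads, against 1.04, 0, 0, 0 and 4.17 in shScr. Its difference was 0.94 (SE 0.22, interval 0.48 to 1.41, adjusted p = 0.0723 by limma with Benjamini-Hochberg adjustment, exact permutation p = 0.0159), and shTet2 replicate 5 lay within the range of shScr. Without that replicate it was 1.14 and passed, at an adjusted p of 0.0172 by limma (Benjamini-Hochberg). This was the only 1 of the 15 fits without a single library in which it passed, and the highest adjusted p of these was 0.211. Without the 4 libraries that stood apart the difference was 0.87 and the adjusted p by limma (Benjamini-Hochberg) was 0.282. Igtp, an interferon-induced GTPase gene, differed by 0.56 (0.04 to 1.07), or by 0.94 in replicates 1 and 2 and 0.3 in replicates 3 to 5, and B2m, the class I light chain, differed by 0.54 (0.13 to 0.94). Between the knockdowns, Tmem173 differed by 0.66 (0.2 to 1.12) and Parp9 by −0.64 (−1.06 to −0.23). In the fit of all libraries without the block, Igtp and B2m against shScr and Tmem173 and Parp9 between the knockdowns did not pass. With the block the limma Benjamini-Hochberg adjusted p of Parp9 was 0.00251, and the highest among the alternatives was 0.286.

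**Figure D5:**
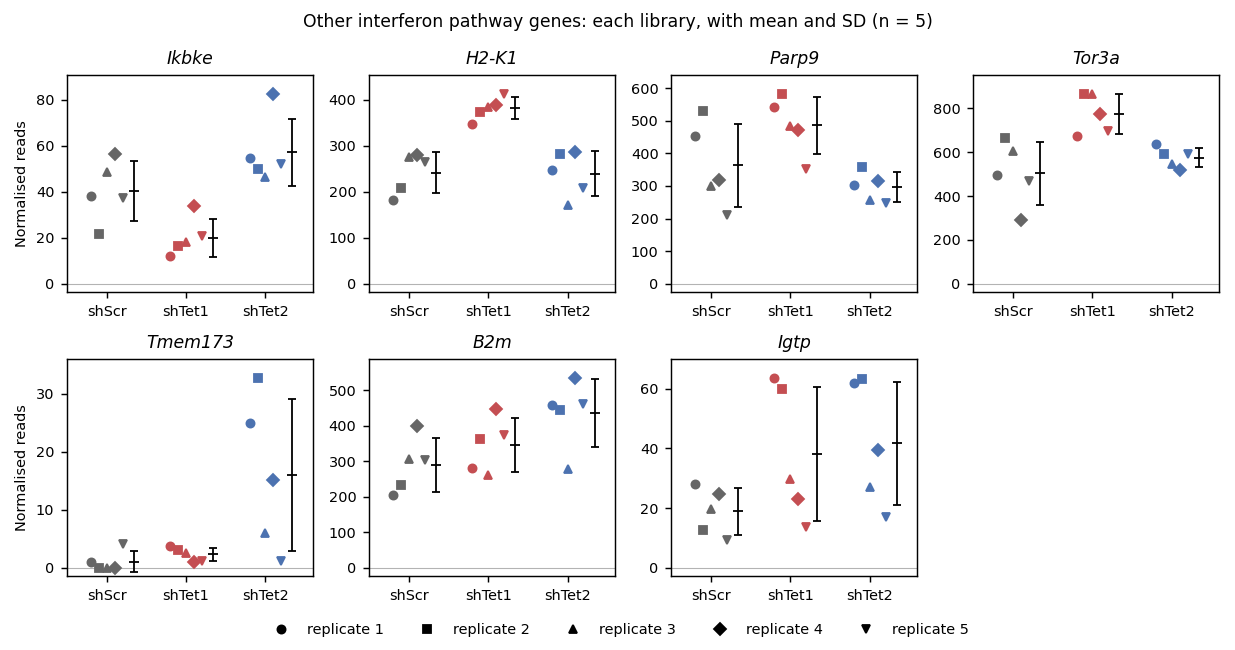
Normalised reads of 7 further genes of the interferon pathway, 1 panel a gene, on linear axes with a line at 0. Points are single libraries with the replicate number as shape, and bars give the mean and SD of 5 libraries. Ikbke is lower and H2-K1 higher in shTet1 than in shTet2 without overlap. Between these groups 3 of the 68 further genes tested were without overlap, against 6.04% of all tested genes.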

How the data were processed

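RNA was sequenced from 15 libraries of mouse ESCs. The labels and the study's methods name Trim Galore 0.3.3, TopHat2 2.0.9 on mm9 with 1 position kept per read, read counts per gene in Seqmonk, and DESeq2, as run by the authors. The table deposited by the authors holds variance-stabilised values, close to log2 of scaled reads, with a minimum of 4.25 for 0 reads. The annotation and strand setting of the counting are not given in the sources used here. Reads from sequences shared between genes may be misplaced, and scaling to all genes makes each difference relative.

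Reversed to scaled counts, 100% of values came out as whole reads (tolerance 0.01). RPKM were computed here from these reads and GENCODE exon lengths in mm9. Genes above the minimum in at least 5 libraries were fitted on the deposited log2-like values with limma 3.58.1 (R 4.3.3, variance trend, 3 groups in 1 fit, Benjamini-Hochberg adjustment, threshold 0.05). The study named a count model. The deposited unit is a log2-like value, so that limma on these values was the main test. An alternative was voom, a weighted linear fit on the log of the recovered reads. Single genes also had a two-sided exact permutation test. The fitting was tested on simulated data. Other alternatives were the filter, the trend, the libraries in the fit, centring, the replicate block and leaving out libraries. The block was fitted over all 3 groups at once and so also paired shTet2 with shScr by number.

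The genes and lists were chosen with earlier results of these data known. Full values are given for genes with an unadjusted p under 0.05 in a comparison and for the highest gene of each role, and further pathway genes are named if called or among the 3 largest differences with such a p. Same-numbered libraries deviated together in shTet1 and shScr (r = 0.374 to 0.657 across genes) and in shTet2 and shTet1 (0.33 to 0.731), which is taken as pairing, but not in every pair of shTet2 and shScr (lowest 0.00789). Some results of this rule are not reported here. A table of repeat classes was not used here.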

Additional observations from a re-analysis of the deposited data

Results flagged for a closer look

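In 4 of 42 groups of 5 libraries, 1 library lay far from the others by Dixon's ratio of its gap to the whole range (limit 0.71). Chance gives about 1 in 20 independent groups. These groups share libraries, and the genes were chosen with earlier results of these data known. The count therefore cannot be read as an excess over chance. The ratios were taken on the variance-stabilised values. Normalised reads are printed beside them to show the level, and ratios taken on those reads would differ. Bst2 in shTet2 replicate 5 had a ratio of 0.724, with 48.8 normalised reads against 128 to 176 in the other 4 libraries. Ifnar1 in shTet2 replicate 4 had a ratio of 0.771, with 915 against 1352 to 1517. Oas1a in shTet2 replicate 5 had a ratio of 0.789, with 347 against 229 to 250. Oasl1 in shTet1 replicate 5 had a ratio of 0.774, with 2.29 against 14.3 or more.

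The effects of the knockdowns, both relative to shScr, differed by test for 2 genes of the wider pathway. Their difference was 0.84 for Ikbke and −0.62 for H2-K1 (shTet2 minus shTet1).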

How the results depend on the processing

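The median difference of the 36 genes moved by less than the spread between replicates (SD 0.272) in every alternative. That spread is wider than the medians themselves (0.04, 0.08 and −0.01), so that a change of sign falls within it. Median centring shifted every difference by −0.05, −0.11 and −0.06 in the 3 comparisons, which takes both medians against shScr below 0. Of the 36 genes, 0 passed the threshold in any alternative except the replicate block. With the block, 1 passed in each comparison, namely Ifitm3, Ifit1 and Adar. For shTet2 against shScr, the numbers were not taken to pair the libraries, and 3 of 5 correlated best with their own number. Ifit1 then had an adjusted p of 0.0292 in limma (Benjamini-Hochberg), as 1 of the 36 genes, or 2.78%. Of the 68 further pathway genes 3 passed in that fit, or 4.41%. Over all genes, 840 of the 19490 tested passed.

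Over all genes, the count for shTet1 against shScr (14) was 37 with a stricter filter, 3 with 2 groups only, 935 with the block and 1 without the libraries high in receptor reads. The count for shTet2 against shScr (76) was 39 with median centring, which shifted the median of all genes by −0.11, and 13 without the libraries high in receptor reads. For shTet2 against shTet1 (827) the count was 2178 with the block and 345 without those libraries. Leaving out single libraries gave 1 to 171, 10 to 99 and 512 to 902 genes. The first was 1 without shScr replicate 2 or shTet1 replicate 1, 2 or 4, and 171 without shTet1 replicate 5. The second was 10 without shTet2 replicate 2, 13 without shTet2 replicate 1, 33 without shTet2 replicate 4, 40 without shTet1 replicate 3, and 14, 21, 28 and 20 without shScr replicates 1, 2, 3 and 5. The third was 512 without shTet1 replicate 2, 521 without shTet2 replicate 2 and 544 without shTet1 replicate 1. Fewer libraries entered these fits, and no other cause was tested.

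Among differences of single genes, 724 values kept their direction and side of the threshold, 15 newly passed it, 8 missed it and 26 changed sign. Each sign change was of a difference that had not passed. Ifitm2 was 0.08 in shTet1 against shScr and −0.05 in shTet2 against shTet1 without the libraries high in receptor reads, and −0.1 (centring) and 0 (voom) in shTet2 against shScr. Oas1a was −0.08 in shTet2 against shScr with centring, and Ddx58 was 0.18 in shTet2 against shTet1 without the libraries high in receptor reads. With single libraries left out, Ifitm2 ranged from −0.19 to 0.01, −0.09 to 0.13 and −0.01 to 0.22 in the 3 comparisons, and Oas1a from −0.25 to 0.12, −0.15 to 0.19 and −0.09 to 0.24. Ifnar1 ranged from −0.02 to 0.25 in shTet2 against shScr, and Ddx58 from −0.24 to 0.06 in shTet2 against shTet1. The low reads of 11 of the 37 genes, at most 20 in every library, limit what differences can be detected in them.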

Other observations

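With the replicate block, 10 of the 68 further pathway genes passed between shTet2 and shTet1, or 14.7% against 11.2% of all tested genes, of which 8 had not passed without it, and 7 of them are named here after their values were seen. Tap1 and Tap2 encode the transporter that supplies peptides for class I molecules. They differed by 0.61 (0.132 without and 0.00834 with the block) and −0.47 (0.223 without and 0.0327 with the block), where the values in parentheses are limma adjusted p-values (Benjamini-Hochberg). Parp9 and its partner gene Dtx3l differed by −0.64 (0.0782 without and 0.00251 with the block) and −0.62 (0.0501 without and 0.0027 with the block). Aim2, a sensor of cytosolic DNA, differed by 0.41 (0.248 without and 0.0301 with the block), Herc6 by 0.53 (0.0645 without and 0.0169 with the block) and Lgals3bp by 0.61 (0.0646 without and 0.0126 with the block).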
